A study of Rattus norvegicus with 12 samples.

Results

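The cells were skin-derived precursors (SKPs), dermal precursor cells that grow as floating spheres, whose gene expression was measured on arrays. They came from newborn Sprague-Dawley rats as 3 independent isolates. Cells of dissociated secondary spheres, raised in medium with 40 ng/ml of the growth factor FGF2 and 20 ng/ml of EGF, were exposed for 24 h to 1 of 4 treatments. These were 100 nM alprostadil (prostaglandin E1), 100 nM trimebutine maleate (a gut motility drug) together with 100 nM trametinib (an inhibitor of the kinase MEK), 100 nM trimebutine maleate alone, and vehicle. Each treatment had 3 arrays, and no group here received trametinib alone, so its addition was measured on top of trimebutine. The genes described are 8 members of the plasminogen and clotting systems, out of 18166 genes with a symbol of their own on the array: Plau, Plaur, Plat, Serpine2, F3, Tfpi, Tfpi2 and Thbd. They were named for their known roles with earlier results of these arrays in view, and where a gene had several features, its feature was to be chosen by its brightness over all arrays. Each of the 8 genes had 1 feature, so brightness decided nothing. Because the set was put together with results known, its counts of changed genes are a description and not independent evidence.

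Plasminogen is the inactive precursor of plasmin, a protease that dissolves fibrin and cleaves matrix proteins around cells. The urokinase-type activator, bound to its receptor on the cell surface, and the tissue-type activator turn it into plasmin, while serpins and Kunitz-type inhibitors hold these proteases back. Clotting starts when tissue factor, carried by cells outside the bloodstream such as dermal fibroblasts, meets a clotting factor from plasma. In skin both systems are at work when a wound fills with fibrin and is later cleared.

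All values are log2 expression values, and a difference is between group means, with its standard error (SE) from a limma model fitted to all 12 arrays. A difference is said to have passed when its Benjamini-Hochberg adjusted p over the 13636 genes tested was below 0.05. Thbd averaged 5.81, just under the low-signal limit of 5.83 that a gene had to reach to be tested, so 7 of the 8 genes were tested. Arrays with the same replicate number deviated together across treatments, and a second fit with the replicate number as a block is given where it changes a call. Comparisons that share a group share its arrays: the vehicle arrays serve the differences of all 3 treatments, and the trimebutine arrays also serve the addition of trametinib.

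Array medians lay between 6.41 and 6.50. All 5 ERK target genes listed as a check of trametinib were lower in the combination than with trimebutine alone, led by Dusp6 (a phosphatase that acts on ERK) at −3.23 ± 0.14 (SE), and all 4 cyclic AMP target genes listed as a check of alprostadil were higher than with vehicle. Of these 4, Nr4a1 and Crem were also higher in the combination than with trimebutine alone. Their differences were 1.76 and 0.52 (limma, adjusted p = 4.5e-05 and 0.000232). Of 10 SKP markers 9 were analysed here. Fn1, Vim and Vcan averaged between 12.71 and 13.53, and Twist1 (6.20) and Sox2 (6.66) lay near the low-signal limit. When trametinib was added, 1 of the 9 rose (Ncam1) and 3 fell (Wnt5a, Pdgfra and Twist1). The summed level of the 9 stayed between 15.11 and 15.20 on all arrays. Summed on the linear scale before taking log2, it mostly reflects Fn1, Vim, Vcan and Pdgfra and says little about the dimmer markers. The 5 endothelial markers analysed, of a cell type known for Plat, Tfpi and Thbd, averaged 5.64 to 6.07, at or near that limit. In a bulk culture, fewer cells of a type and less RNA per cell cannot be told apart.

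**Figure D1:**
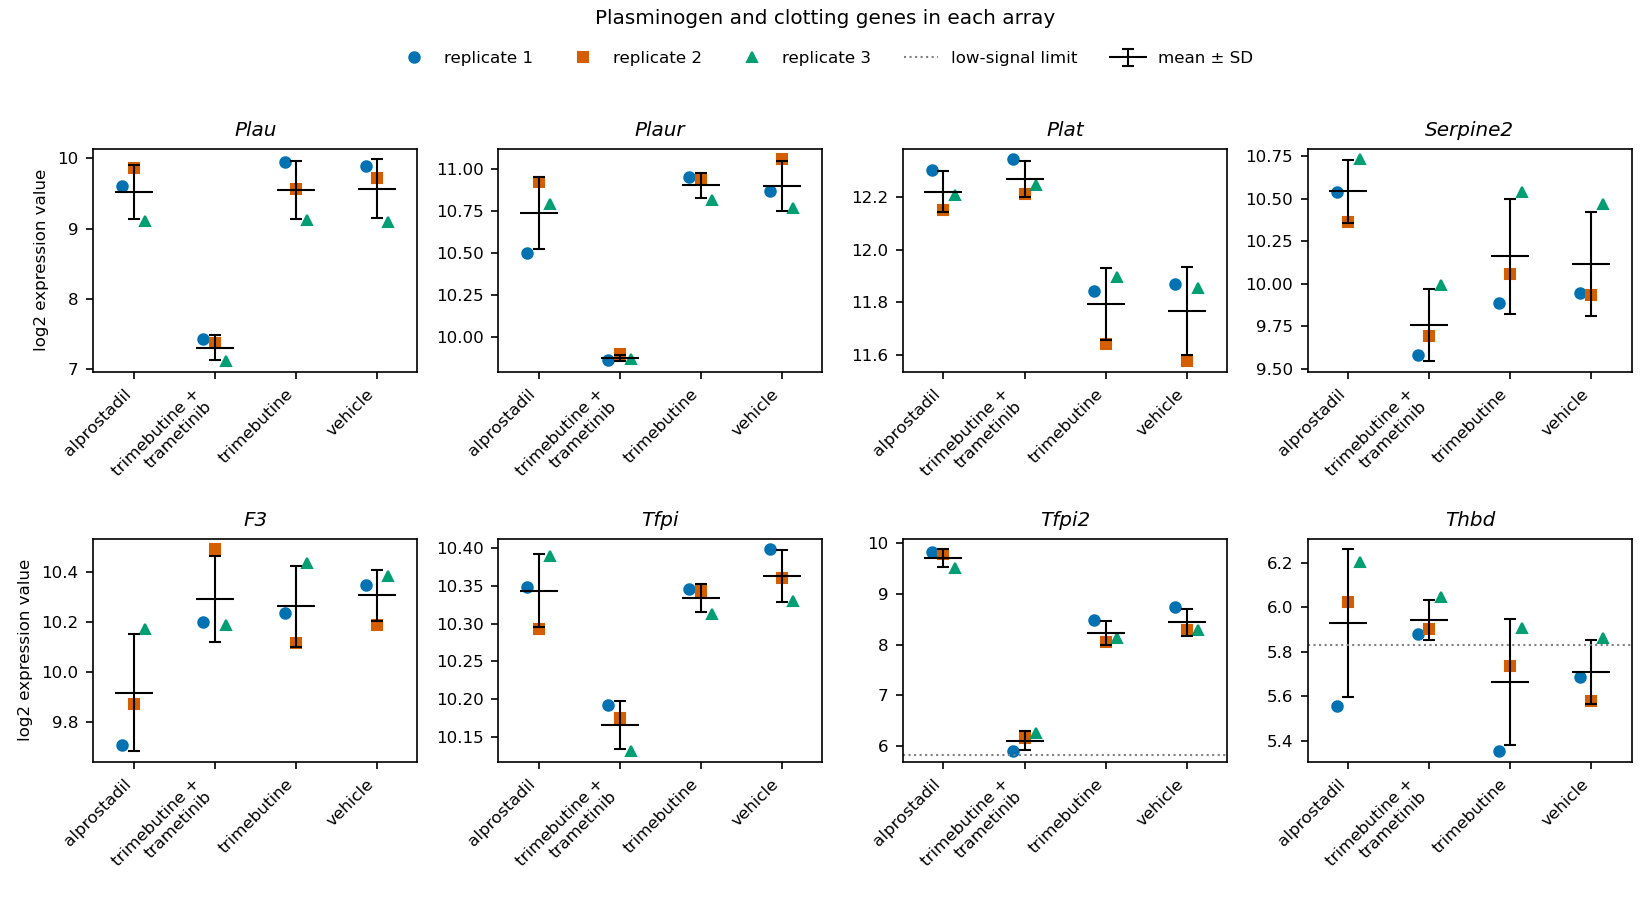
Log2 expression of the 8 genes on every array, 1 panel a gene, with the treatments on the horizontal axis; points are single arrays, bars are the group mean ± SD (n = 3), and the dotted line is the low-signal limit. Plau, Plaur and Tfpi2 lie lowest in the trimebutine plus trametinib group (Tfpi2 between 5.90 and 6.26), and Tfpi2 lies highest with alprostadil (9.50 to 9.82).

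The urokinase arm of the system was lower after trametinib was added to trimebutine. Plau encodes the urokinase-type plasminogen activator, a secreted serine protease. Its level on the 3 arrays was 7.44, 7.38 and 7.11 with trimebutine plus trametinib, against 9.95, 9.56 and 9.13 with trimebutine alone. With alprostadil it was 9.61, 9.86 and 9.10, and with vehicle 9.89, 9.72 and 9.10. The combination arrays lay below all 9 others, and the other groups overlapped. Plau fell by 2.24 ± 0.25 (SE) on the log2 scale, or 4.71-fold, in the combination relative to trimebutine alone (limma, adjusted p = 3.79e-05), and it was lower in 3 of 3 pairs of arrays with the same replicate number. Relative to vehicle it fell by 2.26 on the log2 scale in the combination (adjusted p = 3.43e-05). The alprostadil difference from vehicle was −0.05, with a 95% interval of −0.60 to 0.50 in the fit without the block.

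Plaur encodes the urokinase receptor, which holds the activator at the cell surface. It stood at 9.86, 9.89 and 9.86 with trimebutine plus trametinib, against 10.96, 10.94 and 10.82 with trimebutine alone. The alprostadil arrays read 10.50, 10.92 and 10.79, and the vehicle arrays 10.87, 11.06 and 10.77. The combination arrays were again the lowest of the 12 and close together (SD 0.02), while the alprostadil and vehicle arrays overlapped. Plaur fell by 1.03 ± 0.10 (SE) on the log2 scale, or 2.05-fold, when trametinib was added (limma, adjusted p = 1.65e-05), and by as much relative to vehicle (adjusted p = 1.67e-05). The alprostadil difference of −0.16 did not pass (95% interval −0.39 to 0.07).

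Macrophages also carry this receptor, and macrophage markers moved in both directions. The summed level of the 10 macrophage markers lay between 10.98 and 11.63 in the combination, against 11.66 to 12.16 with trimebutine alone. This sum was also taken on the linear scale, so Cd68, the brightest marker, weighs most in it. Of the 9 tested markers Cd68 fell by 1.03 on the log2 scale (limma, adjusted p = 5e-05), C1qa rose by 0.52 (adjusted p = 0.00557) and 7 did not pass. With the replicate block 3 rose (Csf1r, C1qa and C1qb), 3 fell (Cd68, Cd14 and Ptprc) and 3 did not pass. The 9 tested markers averaged between 6.60 (Aif1) and 10.53 (Cd68), with Csf1r at 8.34, and Cd163, at 5.58, lay under the low-signal limit. The part of these cells in the Plaur difference was not tested.

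Plat, the tissue-type plasminogen activator, moved the other way. Its arrays read 12.34, 12.21 and 12.24 with trimebutine plus trametinib and 11.84, 11.64 and 11.90 with trimebutine alone. With alprostadil they read 12.30, 12.15 and 12.21, and with vehicle 11.87, 11.58 and 11.86. The 6 arrays of the combination and of alprostadil all lay above the 6 arrays of trimebutine alone and of vehicle. Plat rose by 0.47 ± 0.09 (SE) in the combination relative to trimebutine alone, a 1.39-fold difference (limma, adjusted p = 0.00217). The alprostadil difference from vehicle was nearly as large, 0.45 ± 0.09 (SE), or 1.37-fold, and higher in 3 of 3 pairs. It did not pass without the block (limma, adjusted p = 0.0867) and passed with the replicate block (adjusted p = 0.00397). In blocked fits that left 1 replicate number out of every group it passed in 1 of 3 (highest adjusted p = 0.182). In the order of the group means, the combination (12.27) and alprostadil (12.22) did not differ beyond their spread (difference 0.05, 95% interval −0.16 to 0.25), nor did trimebutine alone (11.79) and vehicle (11.77).

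Serpine2 encodes protease nexin-1, a serpin that inhibits thrombin, urokinase and the tissue-type activator. It read 10.54, 10.36 and 10.73 with alprostadil, against 9.94, 9.93 and 10.47 with vehicle. The combination gave 9.58, 9.69 and 9.99, and trimebutine alone 9.88, 10.06 and 10.54. Each treated group overlapped the one it was set against, but within every replicate number alprostadil was the highest of the 4 treatments and the combination the lowest. The alprostadil difference from vehicle was 0.43 ± 0.19 (SE), with an adjusted p of 0.693 in limma without the block and 0.0258 with the replicate block. The blocked call was lost in 3 of 3 fits that left out a replicate number (highest adjusted p = 0.351). The difference of the combination from trimebutine alone was −0.41 ± 0.19 (SE), with an adjusted p of 0.126 without the block and 0.00240 with it. The ends of the order differed in both fits: Serpine2 was 1.73-fold lower in the combination than with alprostadil (limma, adjusted p = 0.00645), and those groups did not overlap.

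F3 encodes tissue factor, the membrane protein that starts clotting. Its arrays read 9.71, 9.87 and 10.17 with alprostadil, against 10.35, 10.19 and 10.38 with vehicle. The combination gave 10.20, 10.49 and 10.19 and trimebutine alone 10.24, 10.12 and 10.44. The highest alprostadil array lay just below the lowest vehicle array, so those groups did not overlap, whereas the combination, trimebutine and vehicle arrays were mixed. The alprostadil difference was −0.39 ± 0.13 (SE), with an unadjusted p of 0.0108 that did not pass after adjustment (limma, adjusted p = 0.446, or 0.149 with the replicate block). F3 differed by 0.03 between the combination and trimebutine alone, with a 95% interval of −0.25 to 0.31. It was higher in the combination than with alprostadil by 0.37 (limma, adjusted p = 0.0375). The differences in replicates 1, 2 and 3 were 0.49, 0.62 and 0.01, so replicate 3 hardly differed. This comparison was not refitted without single arrays.

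Tfpi encodes the tissue factor pathway inhibitor, a Kunitz-type protein that blocks the complex tissue factor forms with its clotting factor. Its arrays read 10.19, 10.17 and 10.13 with trimebutine plus trametinib and 10.35, 10.34 and 10.31 with trimebutine alone. With alprostadil they read 10.35, 10.29 and 10.39, and with vehicle 10.40, 10.36 and 10.33. The combination arrays lay below all others by a small margin. Tfpi fell by 0.17 ± 0.051 (SE) on the log2 scale when trametinib was added, or 1.12-fold (limma, adjusted p = 0.0239), and 48.3% of the tested genes had a larger difference in size. This call rested on few arrays: it did not pass without trimebutine replicate 1 or 2 or without combination replicate 2 or 3 (adjusted p between 0.0526 and 0.0718). Relative to vehicle, Tfpi fell by 0.20 on the log2 scale in the combination (adjusted p = 0.0104), a call that held in 12 of 12 fits without 1 array but in 0 of 3 blocked fits without 1 replicate number (highest adjusted p = 0.0924).

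Tfpi2, a second Kunitz-type inhibitor that acts on plasmin and related proteases in the matrix, had the widest range of the 8 genes and moved with both drugs. Its arrays read 9.82, 9.78 and 9.50 with alprostadil, against 8.74, 8.29 and 8.28 with vehicle. The combination gave 5.90, 6.17 and 6.26, and trimebutine alone 8.49, 8.05 and 8.12. Every alprostadil array lay above every other array and every combination array below, and trimebutine and vehicle overlapped. The lowest combination array was close to the low-signal limit, where differences on these arrays tend to be compressed. Tfpi2 rose by 1.26 ± 0.16 (SE) with alprostadil relative to vehicle, or 2.40-fold (limma, adjusted p = 0.00372), in 3 of 3 pairs. This call was lost in the blocked fit when replicate 2 was left out of every group (difference 1.15, adjusted p = 0.0904). Adding trametinib to trimebutine lowered Tfpi2 4.33-fold, with a log2 difference of −2.12 ± 0.16 (SE; limma, adjusted p = 1.59e-06), and the difference from vehicle was −2.33 (adjusted p = 7.5e-07). The combination lay 12.1-fold below alprostadil.

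Thbd encodes thrombomodulin, a cofactor through which thrombin activates the anticoagulant protein C. It read 5.88, 5.90 and 6.04 with trimebutine plus trametinib, 5.56, 6.02 and 6.20 with alprostadil, 5.35, 5.73 and 5.91 with trimebutine alone, and 5.69, 5.58 and 5.86 with vehicle. These values straddle the low-signal limit, and the combination arrays alone lay entirely above the vehicle arrays. With no low-signal filter the difference between the combination and trimebutine alone was 0.28 ± 0.17 (SE; limma, adjusted p = 0.285).

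The promoter windows of the genes with the largest differences are shown because Plau, Plaur and Tfpi2 all fell with trametinib, while only Tfpi2 passed with alprostadil. Each window is the sense strand, 5′ to 3′, of 250 bases before and 50 after the gene's start, from RefSeq on the rat build GRCr8, and windows were found for 5 of the 8 genes. The windows are chr15:3511938-3512237 on the minus strand for Plau, chr1:89181113-89181412 on the plus strand for Plaur and chr4:32941227-32941526 on the minus strand for Tfpi2. Capitals mark a match to the AP-1 motif TGANTCA.
Plau: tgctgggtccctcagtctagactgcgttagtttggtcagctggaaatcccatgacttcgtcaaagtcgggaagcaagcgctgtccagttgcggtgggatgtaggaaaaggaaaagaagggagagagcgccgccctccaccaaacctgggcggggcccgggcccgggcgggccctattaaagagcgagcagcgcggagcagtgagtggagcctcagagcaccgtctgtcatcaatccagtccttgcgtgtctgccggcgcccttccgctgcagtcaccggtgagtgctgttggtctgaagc
Plaur: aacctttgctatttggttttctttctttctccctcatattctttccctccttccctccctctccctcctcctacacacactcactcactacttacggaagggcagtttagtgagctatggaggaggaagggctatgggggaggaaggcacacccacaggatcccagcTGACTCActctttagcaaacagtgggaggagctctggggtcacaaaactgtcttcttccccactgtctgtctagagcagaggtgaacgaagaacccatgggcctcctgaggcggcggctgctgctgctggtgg
Tfpi2: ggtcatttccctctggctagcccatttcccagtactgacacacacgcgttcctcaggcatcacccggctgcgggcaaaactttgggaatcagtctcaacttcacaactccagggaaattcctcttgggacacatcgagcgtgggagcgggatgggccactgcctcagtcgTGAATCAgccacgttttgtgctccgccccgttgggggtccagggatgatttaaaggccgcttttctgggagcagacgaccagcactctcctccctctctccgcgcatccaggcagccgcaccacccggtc
AP-1 factors (Fos and Jun proteins) are known outputs of ERK signalling. Searched on both strands, TGANTCA matched as TGACTCA at −83 to −77 from the start of Plaur and as TGAATCA at −80 to −74 from the start of Tfpi2, and had no match in the windows of Plau, Serpine2 or Tfpi. It occurs in 7.33% of 33469 rat promoter windows of this length. The CRE motif TGACGTCA, found in 1.83% of windows, the ETS motif CCGGAAGT or AGGAAGT (11.8%) and the TATA box TATAAA (14.2%) had no match in any of these windows. The GC box GGGCGG, in 33.1% of windows, had 3 matches in Plau, 6 in Serpine2, 1 in Tfpi2, 1 in 1 of the 2 Tfpi windows and 0 in Plaur. These are letter matches and do not show binding.

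Across the 7 tested genes, adding trametinib to trimebutine gave 1 gene that rose (Plat) and 4 that fell (Plau, Plaur, Tfpi and Tfpi2), while F3 and Serpine2 did not pass. Over all genes tested, 16.8% rose and 16.6% fell in that comparison, so a changed gene was common. The median difference of the 7 genes was −0.41, against 0.03 over all genes, and the median size of the difference was 0.47, against 0.16. The groups did not overlap for 5 of the 7, against 45.8% of all genes. With the replicate block 5 of the 7 fell, Serpine2 included, against 20.8% of all genes.

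The combination against vehicle gave the same counts, 1 higher and 4 lower, against 17.5% of all genes higher and 17.5% lower. In the blocked fit 5 were lower, against 21.1%, and the groups of 5 of the 7 did not overlap, against 47.3%.

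Alprostadil against vehicle gave 1 gene that rose (Tfpi2), against 0.323% of all genes, and 0 that fell, against 0.066%. Of the 7 genes 4 had an unadjusted p under 0.05, as did 950 of all 13636. With the replicate block 3 of the 7 passed, all higher (Plat, Serpine2 and Tfpi2), against 1.17% of all genes. The groups did not overlap for 3 of the 7 (Plat, Tfpi2 and F3), against 11.6% of all genes.

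**Figure D2:**
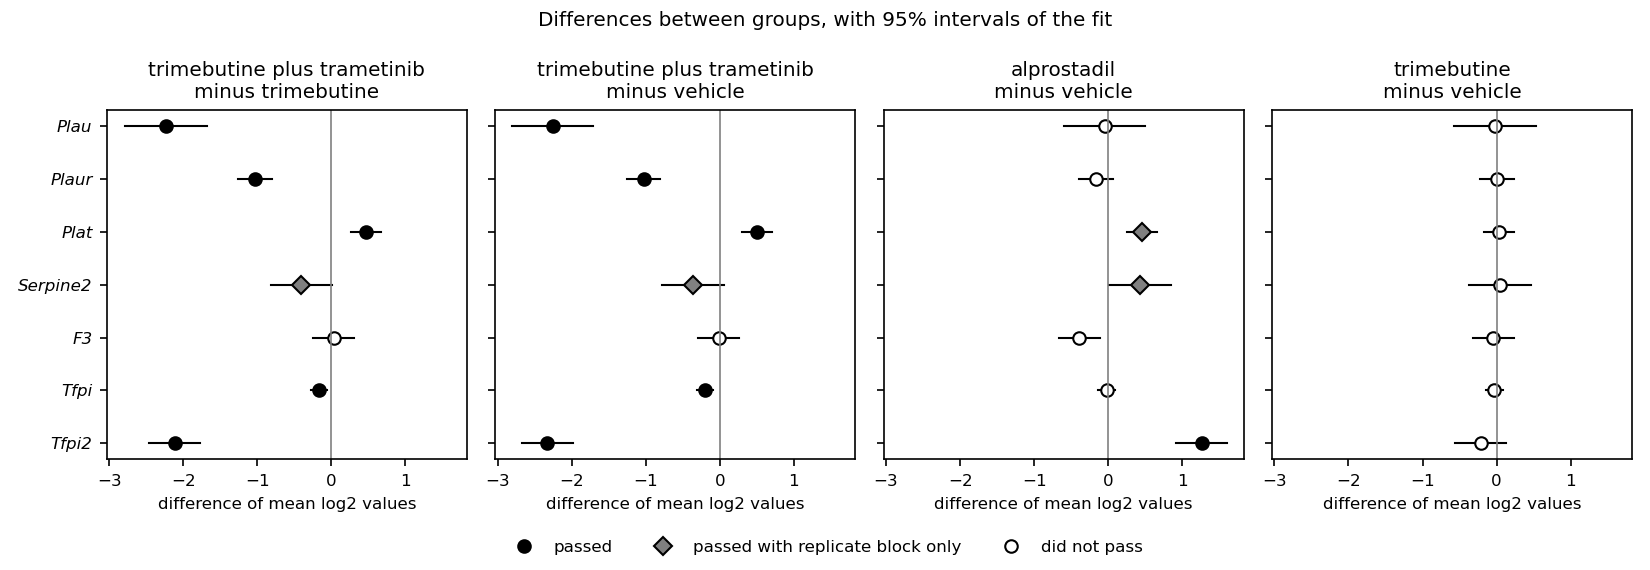
Log2 difference of each tested gene in each comparison, with its 95% interval from limma; the vertical line marks 0, and the fill shows whether the difference passed, passed with the replicate block only, or did not pass. Plau and Tfpi2 lie near −2 after trametinib was added, Plat lies to the right of 0, and the trimebutine differences from vehicle all hold 0 within their intervals.

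Trimebutine alone could not be set apart from vehicle on any of these genes. None of the 7 passed, 0 had an unadjusted p under 0.05, and the groups overlapped for all 7, against 4.23% of all genes whose groups did not overlap. Over all 13636 genes limma called 0%, with 143 genes at an unadjusted p under 0.05 and, with the replicate block, 0 called and 252 at that level. The intervals of the 7 differences, from the fit without the block, differed in width. The widest, that of Plau, reached from −0.57 to 0.53, and the tightest, that of Tfpi, from −0.14 to 0.08. With the replicate block the SE of Plau was 0.11, against 0.25 without it. Tfpi2 then had the largest SE of the 7, at 0.14. The difference furthest from 0 was that of Tfpi2, at −0.22 (95% interval −0.56 to 0.13), which was below 0 in 3 of 3 pairs.

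Set directly against each other, the combination gave 1 gene higher than alprostadil (F3) and 5 lower (Plau, Plaur, Serpine2, Tfpi and Tfpi2), against 19.6% and 18.2% of all genes. Alprostadil gave 1 gene higher than trimebutine alone (Tfpi2), against 0.33% of all genes, and 3 with the replicate block (Plat, Serpine2 and Tfpi2), against 1.51%. Tested over the 4 groups at once, 6 of the 7 genes differed between treatments by limma's moderated F test, against 32.5% of all genes. F3 did not pass (adjusted p = 0.0843, or 0.0478 with the replicate block).

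The arrays also differed by replicate number, most of all for Serpine2 and Thbd. Replicate number accounted for 33.1% of the sum of squares over the 12 arrays for Serpine2, where treatment accounted for 62.0%, and for 47.2% against 29.9% for Thbd. Replicate 3 was the highest of its group in 4 of 4 groups for both genes. For Plau, replicate 3 was the lowest in 4 of 4 groups, and replicate number accounted for 7.05% against 91.5% for treatment. Plat was lowest in replicate 2 in 4 of 4 groups, with 11.3% by replicate number and 85.1% by treatment. For Tfpi2 the replicate number held 0.443% and treatment 98.1%.

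**Figure D3:**
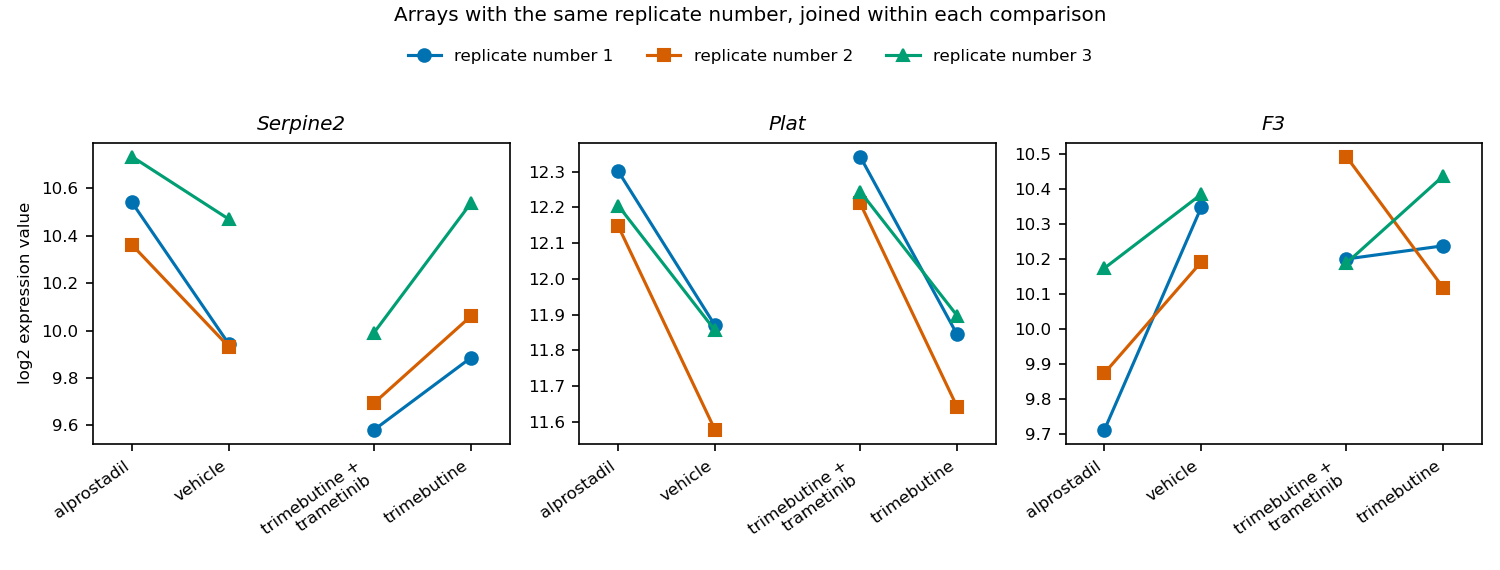
Log2 expression of Serpine2, Plat and F3 by treatment, with a line joining the arrays of 1 replicate number within a comparison. For Serpine2 replicate 3 lies on top in every group. Within each comparison its 3 lines slope the same way, down from alprostadil to vehicle and up from the combination to trimebutine alone. For F3 the lines of the combination and trimebutine alone slope in different directions.

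Other genes of both systems gave a wider view of the trametinib addition. Of 20 further plasminogen genes 13 were tested, of which 2 rose, 1 fell and 10 did not pass. Over all genes tested, 16.8% rose and 16.6% fell in this comparison, so neither count was above the share over all genes. With the replicate block Anxa2, a plasminogen-binding surface protein, also passed, at 0.15 (adjusted p = 0.0449). A2m, a broad protease inhibitor, fell by 1.29 ± 0.10 (SE) on the log2 scale (limma, adjusted p = 1.86e-06), with group means of 6.54 ± 0.07 in the combination and 7.83 ± 0.16 with trimebutine alone (SD, n = 3 each). Vldlr, a lipoprotein receptor that can take up complexes of proteases with serpins, rose by 1.46 ± 0.24 (adjusted p = 0.000713). Serpinf2, the main plasmin inhibitor of blood, rose by 0.22 ± 0.07 (adjusted p = 0.0343). Its means were 6.41 in the combination and 6.19 with trimebutine alone, near the low-signal limit. The Vldlr mean with trimebutine alone (6.21) also lay near that limit. The median difference of the 13 genes was 0.06. With alprostadil 0 of the 13 passed, with or without the block.

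Of 22 clotting factors and processing genes 12 were tested, and 2 rose, 1 fell and 9 did not pass when trametinib was added. These counts too were not above the shares over all genes, 16.8% and 16.6%. F13a1, the subunit of the enzyme that crosslinks fibrin, rose by 0.34 ± 0.08 (SE; limma, adjusted p = 0.00934). Its arrays with trimebutine alone lay at the low-signal limit (5.82 to 5.84). Relative to vehicle, the F13a1 difference of the combination was 0.17 and did not pass (limma, adjusted p = 0.154). Lman1, a receptor that carries clotting factors out of the endoplasmic reticulum, rose by 0.27 ± 0.05 (adjusted p = 0.00171). F5, a clotting cofactor, fell by 0.47 ± 0.15 on the log2 scale (adjusted p = 0.0311), and its combination arrays (6.12 to 6.25) lay near the low-signal limit. With alprostadil 0 of the 12 passed without the block, and F5, at 0.69, passed with it (adjusted p = 0.104 without the block and 0.00408 with it).

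Of 14 anticoagulants and thrombin receptors 12 were tested, and 4 rose, 1 fell and 7 did not pass with the addition of trametinib. Over all genes 16.8% rose and 16.6% fell. With the replicate block 2 fell, the second being Gas6, a relative of protein S, at −0.34 (adjusted p = 0.00388). The thrombin receptors did not move together. F2r, the main receptor that thrombin cleaves, ranged from 12.47 to 12.75 in the combination and from 11.20 to 11.64 with trimebutine alone, a rise of 1.14 ± 0.15 (SE; limma, adjusted p = 0.000108). F2rl1, a related receptor cleaved by trypsin-like proteases, rose by 1.12 ± 0.18 (adjusted p = 0.000569). F2rl2, a further thrombin receptor, fell by 1.99 ± 0.25 on the log2 scale (adjusted p = 8.26e-05), with 6.80 to 7.36 in the combination and 8.80 to 9.41 with trimebutine alone. Pros1, or protein S, a cofactor of protein C and of Tfpi, rose by 0.59 ± 0.09 (adjusted p = 0.000286). Hs3st1, which makes the heparan sulfate that binds antithrombin, rose by 0.76 ± 0.13 (adjusted p = 0.000711). Hs3st1 was also the only one of the 12 to pass with alprostadil without the block, at 1.00 ± 0.13 above vehicle (adjusted p = 0.00395), with arrays of 8.46 to 8.70 with alprostadil and 7.46 to 7.76 with vehicle. With the replicate block F2rl1 also passed with alprostadil, at −0.59 (adjusted p = 0.0291, or 0.375 without the block). Trimebutine alone against vehicle gave 0 calls in these 3 lists. Eno1, Kng2 and F2rl3 were not analysed here.

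**Figure D4:**
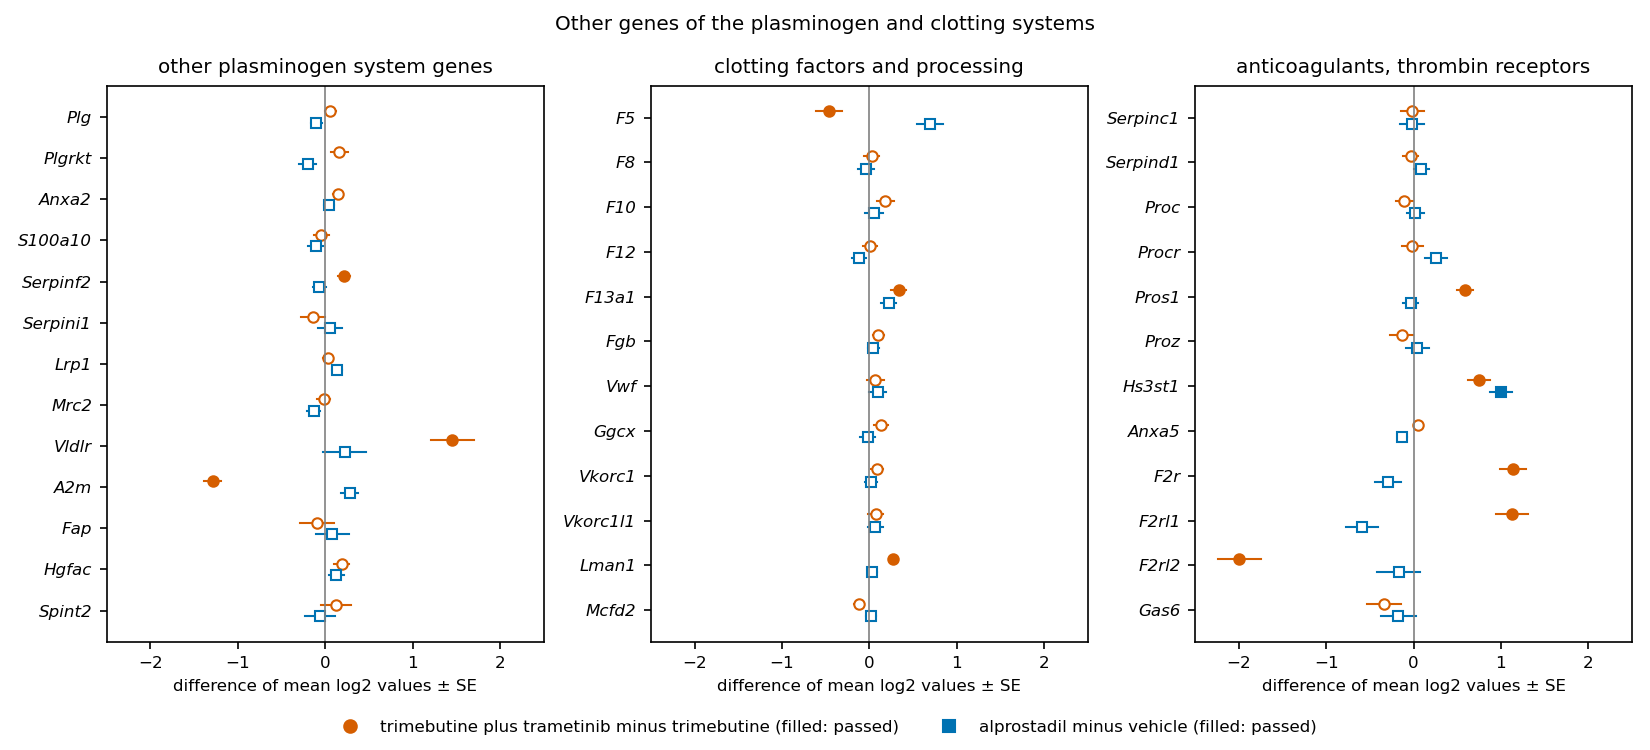
Log2 difference of the other tested plasminogen, clotting and anticoagulant genes, for trimebutine plus trametinib minus trimebutine (circles) and for alprostadil minus vehicle (squares), with bars of 1 SE and filled symbols where the difference passed. F2rl2 and A2m lie furthest below 0 and Vldlr, F2r and F2rl1 furthest above it after the addition of trametinib, and Hs3st1 lies highest with alprostadil.

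The tested genes with profiles nearest to each of the 6 members that passed the F test were found by the root mean square difference over the 12 arrays, each profile centred on its own mean. Nearest to Plau were Dysf (0.183), Adcyap1r1 (0.211) and Kif2c (0.241), and nearest to Plaur were Tspan4 (0.0725), Incenp (0.0800) and Ncapd2 (0.0852). Plat lay nearest to Zeb2 (0.101), Srpx (0.109) and Adamts12 (0.110). Serpine2 lay nearest to Nlrp3 (0.149), Cndp1 (0.150) and Robo1 (0.153). For Tfpi these were Hspa4 (0.0238), Med1 (0.0273) and Ahctf1 (0.0323). The nearest to Tfpi2 was Stc1 (0.262), followed at some distance by Ptgs2 (0.409) and Mmd (0.420). Among these 6, no member was among the 3 nearest to another, and genes that vary little lie near many others on this measure.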

How the data were processed

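Biotin-labelled cDNA made from total RNA was read on the Rat Gene 2.0 ST array of Affymetrix, which has 1 colour, per the labels. The authors deposited log2 expression values, and the submitters' processing notes name oligo and RMA. Their versions and annotation were not given in the sources used here. Of 36685 features, 18511 carried 1 gene symbol, 575 several and 17599 none; 18394 of the first were matched to the GRCr8 gene table. The brightest feature stood for each of 18166 genes, and 13636 with a mean of at least the 25th percentile (5.83) were tested.

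Group means of the 12 arrays were fitted with limma 3.58.1 in R 4.3.3 (lmFit, contrasts.fit and eBayes, two-sided), with no block. The members and gene lists were chosen with earlier results of these data known. From each list, genes that passed with the smallest p were named: up to 6 for the addition of trametinib and up to 3 for alprostadil. The nearest profiles left out olfactory and vomeronasal receptors and genes named by locus number. Replicates are the labels' biological replicates 1 to 3. Deviations from group means correlated at 0.21 to 0.81 in 18 pairs of arrays with the same replicate number and at −0.71 to 0.10 in 36 other pairs, so the numbers pair the arrays. No arrays were identical, and within-group correlations were 0.985 to 0.991. With 3 arrays a group, their number limits the precision. RMA summarises probes on a shared scale and can compress differences near background.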

Additional observations from a re-analysis of the deposited data

How the results depend on the processing

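Of the calls on single genes, 596 kept their side of the threshold, 12 were lost and 12 were gained over the alternatives run. Of the differences that passed in either fit, 0 turned round. Some differences that passed in neither fit did change sign. That of F3 between the combination and trimebutine alone went from 0.03 to −0.003 when each array was centred on its median. Plau, Plaur, Plat and Tfpi2 passed in 12 of 12 fits without 1 array, both for the combination against trimebutine alone and against vehicle; Tfpi passed in 8 of 12 and 12 of 12. Tfpi was also lost against trimebutine alone in a fit of only those 2 groups (adjusted p = 0.0687). Alprostadil depended most on the model. Without a block 53 genes passed against vehicle; the replicate block, which uses the pairing, gave 257, a fit of only those 2 groups gave 29, and fits without 1 array gave 30 to 57. Of the members 1 was higher without the block, 3 with the replicate block and 2 with a trended, robust prior. Fits with the replicate block and without 1 replicate number in every group were added after seeing the data. Without replicate 1, 2 and 3 they called 88, 37 and 125 genes for alprostadil, and 1, 0 and 2 members higher; Plat with alprostadil passed in 1 and Serpine2 with alprostadil passed in 0 of these 3 fits, and Tfpi in 0, both against trimebutine alone (adjusted p = 0.0802 to 0.155) and against vehicle (0.0524 to 0.0924). The replicate block changed no call on a member other than those of Serpine2 and Plat and the F test of F3, given above. The cause of these differences was not tested. Signal near background limits Thbd and, in the combination, Tfpi2.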
